A study of Mus musculus and Rattus norvegicus with 26 samples.

Results

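The Rap regulators examined here were 9 genes, 4 that switch Rap off (Sipa1l1, Sipa1l2, Sipa1l3 and Rap1gap) and 5 that switch it on (Rapgef1, Rapgef2, Rapgef4, Rapgef5 and Rapgef6). They were found by gene symbol among the 13695 genes of 6 lists of intronic contigs, and all 9 had a contig in at least 1 list. Contigs are short stretches of intron covered by sequencing reads, and transcripts that keep such stretches in the cytoplasm are called CIRTs (cytoplasmic intron-sequence retaining transcripts). The set was chosen by the read count of Sipa1l3 in rat dendrites, where one of its introns was among the most read, so that value is a description and carries no test.

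The labels name 26 libraries, and the authors pooled libraries of a group into 1 list. The lists do not show which libraries went into them, and for both kinds of non-neuronal cell the study gives a smaller number than the labels do. Hippocampal neurons were taken from mice of the C57BL/6 strain and from Sprague-Dawley rats at embryonic day 18 and grown in culture. Dendrites (3 mouse and 2 rat libraries, each of many dendrites cut by hand) and somas were collected separately. Each soma library (3 mouse and 3 rat) came from a single soma. Comparisons of dendrites with somas therefore set many dendrites against a few single cells. Brown fat (BAT) cells were single cells of CD-1 mice at embryonic day 17.5 (6 libraries), and cardiomyocytes were single cells of transgenic C57BL/6 mice at embryonic day 14.5 (9 libraries), which carry the fluorescent cell cycle probe mAG-hGem behind the CMV promoter, active in many cell types. None of the groups had a drug treatment or a targeted gene in the labels, and the RNA of every library went through 3 rounds of aRNA amplification, a linear copying that starts from a poly(T) primer. Because each group is 1 pooled list, no value below has an error between libraries and no comparison has a test. Intervals are exact 95% intervals and cover counting error only, since reads made by amplification are not independent molecules.

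Rap proteins are small GTPases that act as switches in cell adhesion, in the shaping of dendritic spines and in signalling from cAMP and growth factors. Guanine nucleotide exchange factors (GEFs) load them with GTP, and GTPase-activating proteins (GAPs) make them hydrolyse it. In neurons the SIPA1-like proteins, known as SPARs after Sipa1l1, sit at the postsynaptic density, and Rapgef4 (Epac2) answers to cAMP.

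The 6 sequences below come from mouse introns. Of these, 5 lie at the end of a contig, and that of Sipa1l3 lies inside contigs of 2 lists. They were read from the mouse genome build NCBIM37 (mm9), 5′ to 3′ on the strand of the gene, and each lies inside an annotated intron. In 4 of the stretches the capitals mark the run of adenines at which contigs of 1 or more lists ended. Rapgef1 intron 1 is chr2:29492548-29492693 on the plus strand, Rapgef1 intron 3 is chr2:29537659-29537804 (plus), Sipa1l1 intron 11 is chr12:83519464-83519613 (plus) and Rapgef6 intron 5 is chr11:54376418-54376554 (plus).
Rapgef1 intron 1: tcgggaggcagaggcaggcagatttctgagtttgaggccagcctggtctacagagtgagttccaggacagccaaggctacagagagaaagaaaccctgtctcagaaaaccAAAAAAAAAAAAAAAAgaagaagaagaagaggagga
Rapgef1 intron 3: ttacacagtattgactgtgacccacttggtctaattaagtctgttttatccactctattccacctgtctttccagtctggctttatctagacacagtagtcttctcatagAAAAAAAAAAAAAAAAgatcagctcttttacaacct
Sipa1l1 intron 11: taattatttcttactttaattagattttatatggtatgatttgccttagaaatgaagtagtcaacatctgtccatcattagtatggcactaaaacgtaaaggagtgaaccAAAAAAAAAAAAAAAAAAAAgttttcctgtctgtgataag
Rapgef6 intron 5: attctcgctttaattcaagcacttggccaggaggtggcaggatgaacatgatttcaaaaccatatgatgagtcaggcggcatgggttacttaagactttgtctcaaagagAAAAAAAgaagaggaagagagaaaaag

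The other 2 stretches come from genes that were listed in mouse dendrites and not in mouse somas. In Sipa1l3 intron 13, chr7:30146667-30146861 on the minus strand, the capitals mark a run of 15 thymines inside the stretch that mouse dendrites and BAT cells shared. In Rapgef2 intron 12, chr3:78892008-78892206 on the minus strand, the whole contig of mouse dendrites is shown, and the capitals mark the last 2 bases of the intron, the AG of the splice acceptor.
Sipa1l3 intron 13: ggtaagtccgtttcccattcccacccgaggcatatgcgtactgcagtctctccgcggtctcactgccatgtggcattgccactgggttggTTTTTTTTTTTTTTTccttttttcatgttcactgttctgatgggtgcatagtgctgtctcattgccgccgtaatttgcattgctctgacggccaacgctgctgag
Rapgef2 intron 12: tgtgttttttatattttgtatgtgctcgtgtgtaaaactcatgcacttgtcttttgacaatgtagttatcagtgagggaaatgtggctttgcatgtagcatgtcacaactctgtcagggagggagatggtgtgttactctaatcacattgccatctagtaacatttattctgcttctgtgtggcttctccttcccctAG

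The lists differed in depth, from 1007530 reads summed over all introns in rat dendrites to 17858440 in BAT cells. Levels are therefore given as RPM, reads per 1000000 of these reads, and a gene absent from a list is set at a floor of 3 reads of that list wherever a ratio or a plot needs a value. Absence can also come from the authors' filters, which took out introns that hold a gene prediction or a known poly(A) site. Of 10 neuron markers, 9 were listed in mouse somas (10410 RPM in all), 8 in mouse dendrites (301.6), 5 in rat somas and 3 in rat dendrites, and Map2 was in no list. Of 9 brown fat markers, 8 were in the BAT list, and 7 of 9 cardiomyocyte markers were in the cardiomyocyte list. Of all genes in any mouse list, dendrites held 69.0%, somas 47.3%, BAT cells 82.0% and cardiomyocytes 49.8%. Of those in any rat list, dendrites held 78.5% and somas 59.4%. The mouse dendrite list also held 5 of 6 glial, 6 of 9 brown fat, 5 of 9 cardiomyocyte and 3 of 5 fibroblast markers. These stood at 52.8, 425.4, 518.7 and 70.3 RPM. Single genes gave much of 2 sums, Ebf2 204.8 of the brown fat sum and Ryr2 279.6 of the cardiomyocyte sum. In the mouse soma list the same 4 groups stood at 3.23, 2.16, 10.2 and 55.0. Rat dendrites held 3 of 5 fibroblast markers at 318.6 RPM, beside 359.3 for the neuron markers, and rat somas 1 at 0.955 beside 3971. In rat dendrites Col1a2 alone gave 288.8 of the fibroblast sum and Gria2 296.8 of the neuron sum. The BAT list held 6 of 9 cardiomyocyte markers at 2780 RPM, beside 8132 for the brown fat markers, and 7 of 10 neuron markers at 614.9. There Nkx2-5 alone gave 1501 of the cardiomyocyte sum and Fabp4 4417 of the brown fat sum. Whether RNA from other cells adds to the values of the Rap regulators was not tested, and less RNA per dendrite and fewer dendrites cannot be told apart in a pooled list.

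Mouse dendrites listed 7 of the 9 genes in 43 contigs with 5947 reads, beside 69.0% of the 12467 genes in the mouse lists. Mouse somas listed 4, in 15 contigs with 8168 reads, beside 47.3% of all genes. BAT cells listed 7, in 55 contigs with 12607 reads (82.0% of all genes), and cardiomyocytes 5, in 24 contigs with 10224 reads (49.8%). Each rat list held 4 of the 9, with 25440 reads in dendrites and 3345 in somas, beside 78.5% and 59.4% of the 5712 genes in the rat lists. Of the rat dendrite reads, 25042 are the count of Sipa1l3 that chose the set, and the other 3 genes held 293, 97 and 8, fewer in all than the reads in somas. All 9 were in at least 1 mouse list and 5 in at least 1 rat list, so on the base used for all genes the shares were 77.8% in mouse dendrites, 44.4% in mouse somas, 77.8% in BAT cells, 55.6% in cardiomyocytes and 4 of 5 in either rat list. Only Sipa1l1 and Rapgef6 were in all 6 lists, as were 854 genes (6.24%) of the series. Only genes listed in both species could be, which were 5 of the 9 and 4483 of the series.

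**Figure D1:**
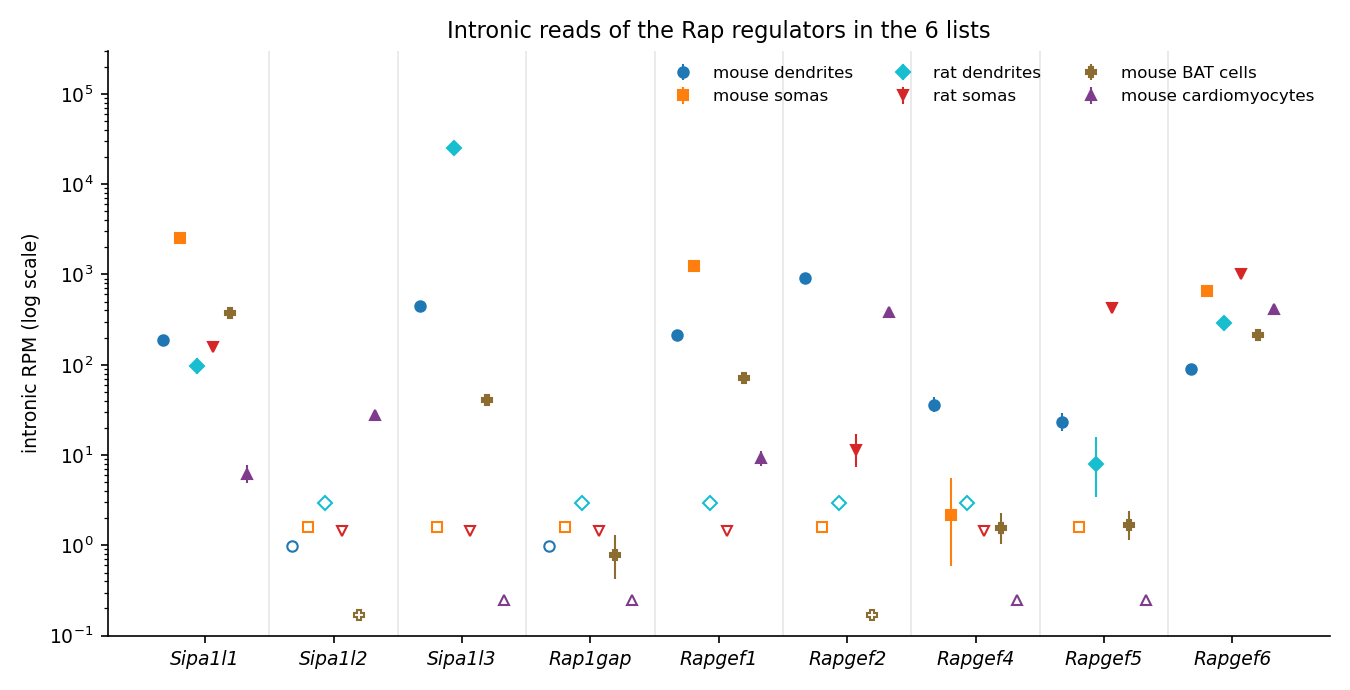
Intronic RPM (reads per 1000000 listed reads, log scale) of the 9 Rap regulators in the 6 lists, with exact 95% counting intervals. Filled symbols are listed genes and open symbols stand at 3 reads of a list that lacks the gene. Sipa1l3 in rat dendrites, at 24850, is far above every other point.

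Sipa1l3, a SIPA1-like GAP, had its reads in dendrites and BAT cells. Rat dendrites held 25042 reads, or 24850 RPM (interval 24550 to 25160). Mouse dendrites held 1380 reads, or 447 RPM (424 to 471), and BAT cells 722 reads, or 40.4 RPM (37.5 to 43.5). It was absent from mouse somas, rat somas and cardiomyocytes, where the floor of 3 reads stands at 1.62, 1.43 and 0.246 RPM.

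The rat reads of Sipa1l3 lay in 1 contig of 997 nt in intron 4 (chr1:84469739-84470735 of rn4, minus strand), at 1256 reads per 50 nt of contig. That density ranked 3 of the 7426 introns in the list, and the count ranked 2. In mouse dendrites the reads were spread over 5 introns instead. Intron 13 had 495 reads, intron 8 had 471, intron 20 had 238, intron 16 had 152 and intron 9 had 24, so that the most read intron carried 35.9% (33.3 to 38.5) of the reads. Over the 4506 genes with several listed introns in mouse dendrites, the median share of the most read intron was 76.5%. The spread rested on long contigs. The study set a limit of 400 nt for contigs of whole cells, which is applied here to dendrites too. Under it 519 reads in 2 introns remained and intron 13 carried 95.4%. An intron keeps its whole count while 1 of its contigs remains. The 495 reads of intron 13 therefore still include those of a contig of 467 nt. No mouse list held intron 4 of Sipa1l3. Rat and mouse intron numbers were not aligned, so whether they name the same intron was not tested.

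In BAT cells intron 13 of Sipa1l3 carried 659 of the 722 reads, 91.3% (89.0 to 93.2). The contigs of mouse dendrites and BAT cells in intron 13, chr7:30146616-30147082 and chr7:30146555-30147107, covered the same ground, since the dendrite contig of 467 nt lay wholly inside the BAT contig of 553 nt. Both hold the run of 15 thymines printed above. A run of 10 or more thymines inside the contig or within 300 nt before it was common. It went with 26.0% of all contigs in mouse dendrites and 18.3% in BAT cells. The dendrite list had 2 further contigs in intron 13, 317 and 224 nt long and closer to its 3′ end, and the BAT list had 1 of 162 nt near its 5′ end. In introns 9 and 20, which both lists also shared, their contigs did not overlap.

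Sipa1l1, the founding SPAR and a GAP of the postsynaptic density, was in every list. Mouse somas held 4656 reads (2509 RPM) and mouse dendrites 584 (189). Rat somas held 331 (158) and rat dendrites 97 (96.3). BAT cells held 6722 (376) and cardiomyocytes 76 (6.23). Mouse somas were thus highest and cardiomyocytes lowest, while the intervals of mouse dendrites (174 to 205.2) and rat somas (142 to 176) met.

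Different introns of Sipa1l1 carried the reads in different lists. Intron 11 held 4387 of the 4656 soma reads, 94.2% (93.5 to 94.9), and 66 of the 76 cardiomyocyte reads. In mouse dendrites intron 13 led with 449 reads, and in BAT cells intron 4 with 4168, in a single contig of 717 nt that ended 115 nt before the exon. Neither of those 2 introns was in another mouse list. With contigs of at most 400 nt in whole cells (an intron keeps its count while 1 of its contigs remains), somas kept 269 reads, all in intron 5, and BAT cells 127, of which intron 2 held 122, so that other introns led in both. Intron 11 was the only one of Sipa1l1 in all 4 mouse lists. Its BAT contig overlapped a contig of dendrites and one of somas by 465 nt, and no other contigs of this intron overlapped. The cardiomyocyte contig ended 7 nt before the first base of the dendrite contig. The BAT contig of 1021 nt covered the dendrite contig whole and ended 4 nt before the run of 20 adenines printed above, on the last base of which a soma contig of 489 nt ended. In rat, dendrites had introns 2 (94 reads) and 20 (3 reads) and somas intron 4 (331 reads).

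Sipa1l2, the third SIPA1-like GAP, was listed only in cardiomyocytes, with 338 reads (27.7 RPM, interval 24.8 to 30.8). Of these, 337 lay in 1 contig of 326 nt in intron 15. Rap1gap, a GAP of Rap1, was listed only in BAT cells, with 14 reads (0.784 RPM, 0.429 to 1.31) in introns 7, 16 and 17. Its introns held 4, 3 and 7 reads, and no other Rap regulator in the BAT list had a lower level.

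Rapgef1 is the GEF that Crk adaptors bring to the membrane. Mouse somas held 2282 reads (1230 RPM), mouse dendrites 667 (216), BAT cells 1286 (72.0) and cardiomyocytes 112 (9.18), and it was in neither rat list. The mouse order was the same as that of Sipa1l1 but for dendrites and BAT cells, which changed places. Of its 25 introns 5 were listed, numbers 1, 3, 5, 11 and 12, and 4 of these were in 3 or more of the mouse lists.

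Intron 3 of Rapgef1 led in dendrites (528 reads, 79.2%) and in somas (1547 reads, 67.8%), and in both lists the reads lay in 1 contig. The soma contig is longer than 400 nt, and under that limit somas kept 607 reads, all in intron 12. The contigs, 321 and 409 nt long, overlapped by 306 nt, and each ended in or just after the 16 adenines printed above. The soma contig stopped inside the run, 10 nt before its last base, and the dendrite contig 5 nt after it. BAT cells and cardiomyocytes had other stretches of the same intron. Their 2 contigs each, of 101 and 209 nt in BAT cells and 114 and 178 nt in cardiomyocytes, overlapped pairwise, with 24 and 7 reads.

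Intron 1 of Rapgef1, which is 59069 nt long, led in BAT cells (1219 reads in 7 contigs) and in cardiomyocytes (83 reads in 1 contig). All 4 mouse lists had a contig at the same place in it. The dendrite contig (418 nt) and the cardiomyocyte contig (340 nt) ended on the same base, the last of the 16 adenines of intron 1. The soma contig (725 nt) ended 6 nt before that run, and the BAT contig (1816 nt) ran 233 nt past it.

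**Figure D2:**
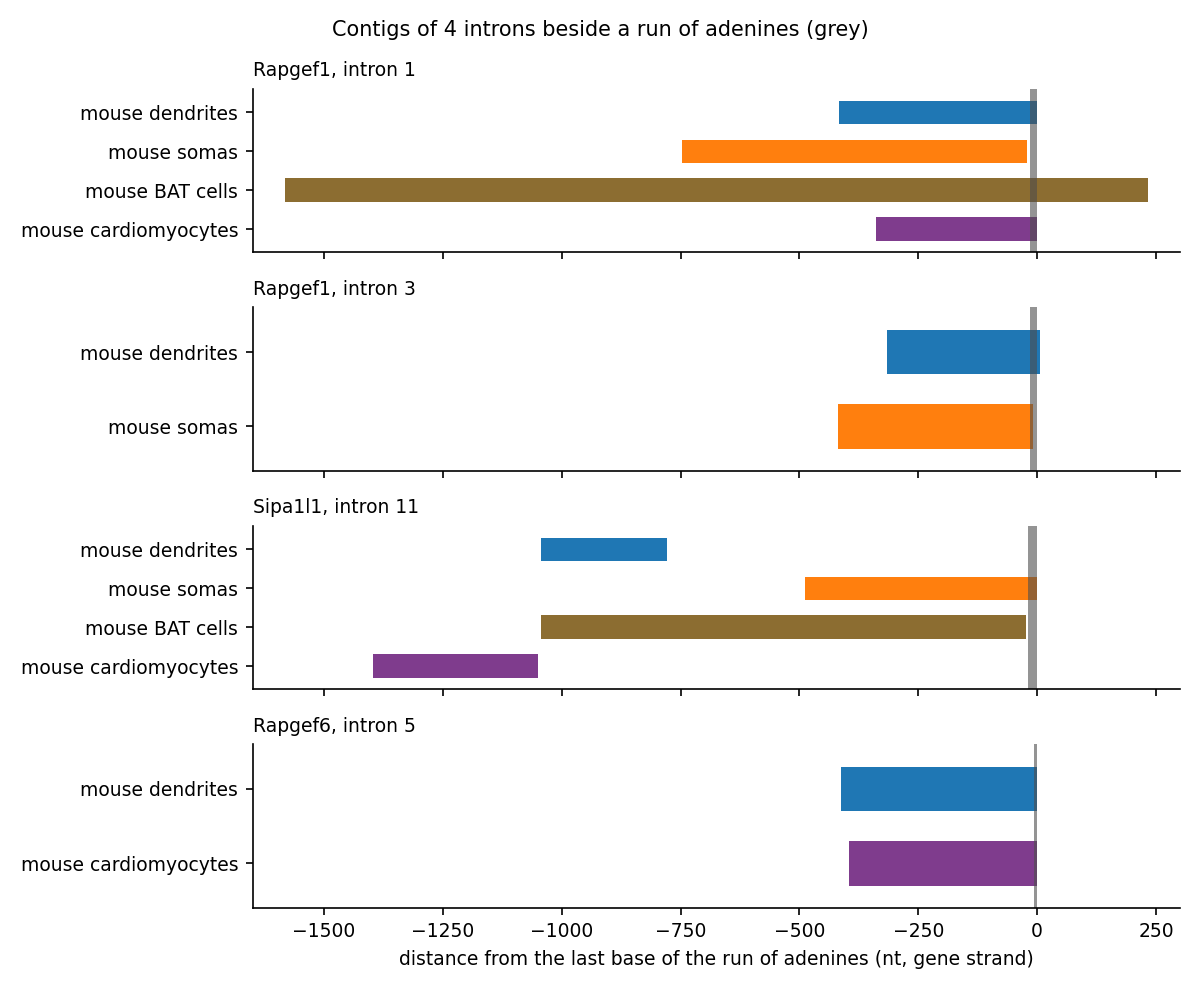
Extent of the contigs of 4 introns on the gene's strand, by distance in nt from the last base of a run of adenines (grey). Each bar is 1 contig of the list named at the left. The dendrite and cardiomyocyte contigs of Rapgef1 intron 1 and of Rapgef6 intron 5 end on the last adenine, and the BAT contig of Rapgef1 intron 1 runs past it.

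Rapgef2 (PDZ-GEF1) was listed in 3 of the 6 lists. Mouse dendrites held 2853 reads (924 RPM, 891 to 959), cardiomyocytes 4658 (382, 371 to 393) and rat somas 24 (11.5, 7.34 to 17.05). No intron was shared between the mouse lists. In dendrites 2825 reads, 99.0% (98.6 to 99.3), lay in the 199 nt of intron 12 printed above, which end on the last base of the intron. At 709.8 reads per 50 nt, that intron ranked 14 of 19477 in density. In cardiomyocytes intron 3 had 3269 reads in a contig of 868 nt and intron 22 had 1383 in a contig of 647 nt. Under the limit of 400 nt both went, and 6 reads in intron 2 remained.

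Rapgef6 (PDZ-GEF2), the closest relative of Rapgef2, was in all 6 lists. Mouse somas held 1226 reads (661 RPM), mouse dendrites 279 (90.4), rat somas 2108 (1006), rat dendrites 293 (291), BAT cells 3805 (213) and cardiomyocytes 5040 (413). Rat somas were thus highest and mouse dendrites lowest, and in each species somas stood above dendrites. Both rat soma contigs (439 and 921 nt) were longer than the study's limit of 400 nt, and under it rat somas held none of these reads. It had the most listed introns, 18 of 27, and 9 of them were in 2 or more mouse lists.

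The leading intron of Rapgef6 differed among all 4 mouse lists. It was intron 15 in dendrites (84 reads, 30.1%), intron 26 in somas (472, 38.5%), intron 20 in BAT cells (2720, 71.5%) and intron 3 in cardiomyocytes (2362, 46.9%). Under the limit of 400 nt intron 16 led in BAT cells (718 reads, 66.2%) and intron 5 in cardiomyocytes (1537, 58.7%), and with the limit in dendrites too, intron 4 led there (48 reads, 27.6%). Both rat lists had intron 17 in common, with 243 reads in dendrites and 2108 in somas. Intron 5 was shared by dendrites (45 reads), cardiomyocytes (1537 reads) and BAT cells (5 reads). A dendrite contig of 412 nt and the cardiomyocyte contig of 396 nt ended on the same base, the last of the 7 adenines printed above. The BAT contig overlapped neither. In intron 13 the BAT and cardiomyocyte contigs, of 140 and 139 nt, began on the first base of the intron, and both overlap an annotated exon, so they may hold exon sequence of another transcript.

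Rapgef4 (Epac2), the cAMP-gated GEF, had few reads. Mouse dendrites held 112 (36.3 RPM, 29.9 to 43.7), mouse somas 4 (2.16, 0.587 to 5.52) and BAT cells 28 (1.57, 1.04 to 2.27). Intron 29 carried 102 of the dendrite reads. Its 10 listed introns, all numbered 11 or higher, were each in 1 mouse list only, and 6 of them held 2 reads. Rapgef5 held 72 reads in mouse dendrites (23.3 RPM), none in mouse somas, 8 in rat dendrites (7.94), 882 in rat somas (421) and 30 in BAT cells (1.68). Intron 4 carried 66 of the reads in mouse dendrites, in 101 nt that begin on the first base of the intron. Both rat lists had intron 14, in contigs that did not overlap.

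**Figure D3:**
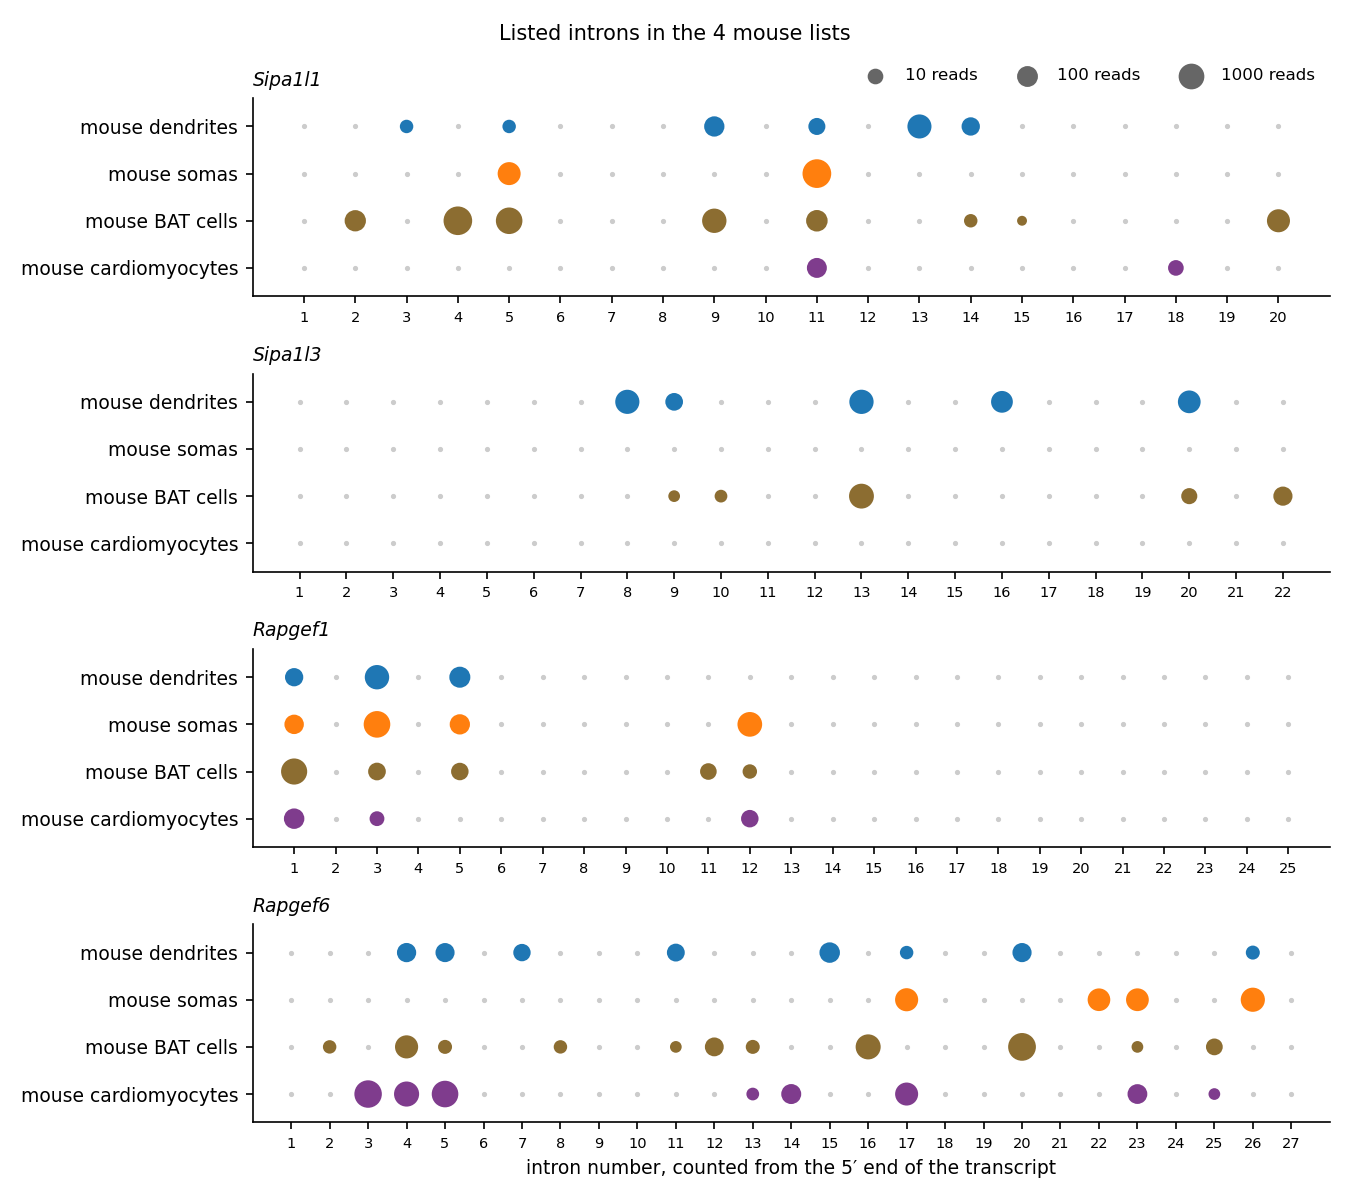
Listed introns of Sipa1l1, Sipa1l3, Rapgef1 and Rapgef6 in the 4 mouse lists, by intron number from the 5′ end. Grey dots are introns that a list lacks, and the area of a filled circle grows with the logarithm of its reads. Rapgef1 was listed in 5 introns up to number 12 and Rapgef6 in 18 introns along its length.

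The comparison of dendrites with somas asks whether intron sequence of the Rap regulators differs between the parts of a neuron. In mouse, 7 of the 9 could be compared. Called means a ratio of RPM past 4-fold. Rapgef2 was at least 572-fold, Sipa1l3 at least 276.5-fold and Rapgef5 at least 14.4-fold higher in dendrites, since somas held none of their reads, and Rapgef4 was 16.8-fold higher (interval 6.39 to 62.9). Sipa1l1 was 13.3-fold (12.2 to 14.5), Rapgef6 7.31-fold (6.41 to 8.36) and Rapgef1 5.69-fold (5.22 to 6.21) higher in somas. Thus 4 of 7 were called higher in dendrites and 3 of 7 lower, where 43.6% and 22.0% of the 8955 genes compared were called. All 7 fell past 4-fold, and the 3 that were higher in somas were the 3 with over 1000 soma reads.

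With the limit of 400 nt that the study set for contigs of whole cells, Sipa1l1 kept 269 of its soma reads and the ratio of dendrites to somas became 0.622, within 4-fold. Rapgef1 kept 607 and its ratio became 0.315, so that only Rapgef6 stayed called higher in somas (ratio 0.0652). The genes higher in dendrites stayed called at lower values, Rapgef2 at 272, Sipa1l3 at 132, Rapgef4 at 8.02 and Rapgef5 at 6.88. With the limit in dendrites too, these 4 stood at 480, 87.4, 14.1 and 12.1, Rapgef6 at 0.0717, and Sipa1l1 and Rapgef1 at 0.944 and 0.555. Rapgef1 was also within 4-fold (ratio 0.268) when reads were scaled to the median reads per intron. Under the limit an intron keeps its whole count while 1 of its contigs remains, so kept reads can include those of longer contigs.

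In rat, 5 of the 9 genes could be compared. Sipa1l3 was at least 17350-fold higher in dendrites, and Rapgef5 was 53.0-fold (26.8 to 123.2) higher in somas. With the limit of 400 nt in whole cells the bound of Sipa1l3 became 5130, and with the limit in all lists it had no value, since its 1 contig is longer. Under either limit Rapgef5 lost its soma reads and turned to at least 1.64-fold and 4.23-fold higher in dendrites. Rapgef6 and Sipa1l1 were 3.46-fold (3.06 to 3.92) and 1.64-fold (1.31 to 2.08) higher in somas, within 4-fold. Rapgef2 was at least 3.85-fold higher in somas. Rapgef6 and Rapgef2 passed 4-fold (ratios 0.212 and 0.191) when reads were scaled to the sequenced reads of the libraries. So 1 of 5 was called higher in dendrites and 1 of 5 lower, and 48.7% and 23.6% of the 4982 genes compared were called. The 1 called higher is Sipa1l3, whose value in rat dendrites chose the set, so nothing is read from that count. Of the other 4 genes none was called higher and 1 lower. All 5 contigs of Rap regulators in the rat soma list were longer than 400 nt, between 439 and 921 nt, and under the study's limit for whole cells none of them would remain.

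Both dendrite lists held Sipa1l3 and neither soma list did. Of the 2763 genes in both dendrite lists, 583 (21.1%) were in neither soma list, so this pattern was not rare. Sipa1l1 and Rapgef6, the other Rap regulators compared in both species with reads in all 4 neuronal lists, were higher in somas in both. In mouse the limit of 400 nt in whole cells moved the ratio of dendrites to somas from 0.0754 to 0.622 for Sipa1l1. With the limit in all lists it was 0.944, so that order rests on long contigs, while Rapgef6 stayed called higher in somas. In rat this order rests on contigs longer than 400 nt in both parts of the neuron for both genes. The limit in whole cells alone took out all soma reads of both genes and left those of dendrites, which turned the ratios to at least 19.9-fold (Sipa1l1) and 60-fold (Rapgef6) higher in dendrites. With the limit in all lists neither gene had a value, since 94 of the 97 dendrite reads of Sipa1l1 and all 293 of Rapgef6 lay in longer contigs too.

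BAT cells and cardiomyocytes were compared as 2 kinds of non-neuronal cell, and all 9 genes had a ratio. Sipa1l1 was 60.4-fold (48.2 to 76.8) and Rapgef1 7.845-fold (6.46 to 9.60) higher in BAT cells, and Sipa1l3, Rapgef5 and Rapgef4 were at least 164-fold, 6.83-fold and 6.38-fold higher. Rapgef2 was at least 2273-fold and Sipa1l2 at least 165-fold higher in cardiomyocytes. Rapgef6 was 1.94-fold (1.86 to 2.02) higher in cardiomyocytes and Rap1gap at least 3.19-fold higher in BAT cells, both within 4-fold. So 5 of 9 were called higher in BAT cells and 2 of 9 lower, beside 49.4% and 20.2% of the 10158 genes compared. Scaling to the median reads per intron moved every ratio of this comparison up by 1.42 on the log2 scale, which gave 62.1% and 13.5% of all genes, brought Rap1gap past 4-fold (8.53) and turned the ratio of Rapgef6 to 1.38, higher in BAT cells. Under the limit of 400 nt the ratio of Sipa1l1 became 1.01, since 127 of its 6722 BAT reads remained. Of these, 122 are the whole count of intron 2, which was kept for 1 contig of 164 nt beside longer ones. The bound of Rapgef5 fell to 2.02, within 4-fold, and Rapgef2 fell to 6 reads in cardiomyocytes, which ended its call. The ratio of Rapgef6 fell to 0.251. With a minimum of 32 reads per intron Rapgef4 and Rapgef5 had no value, which ended both calls.

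**Figure D4:**
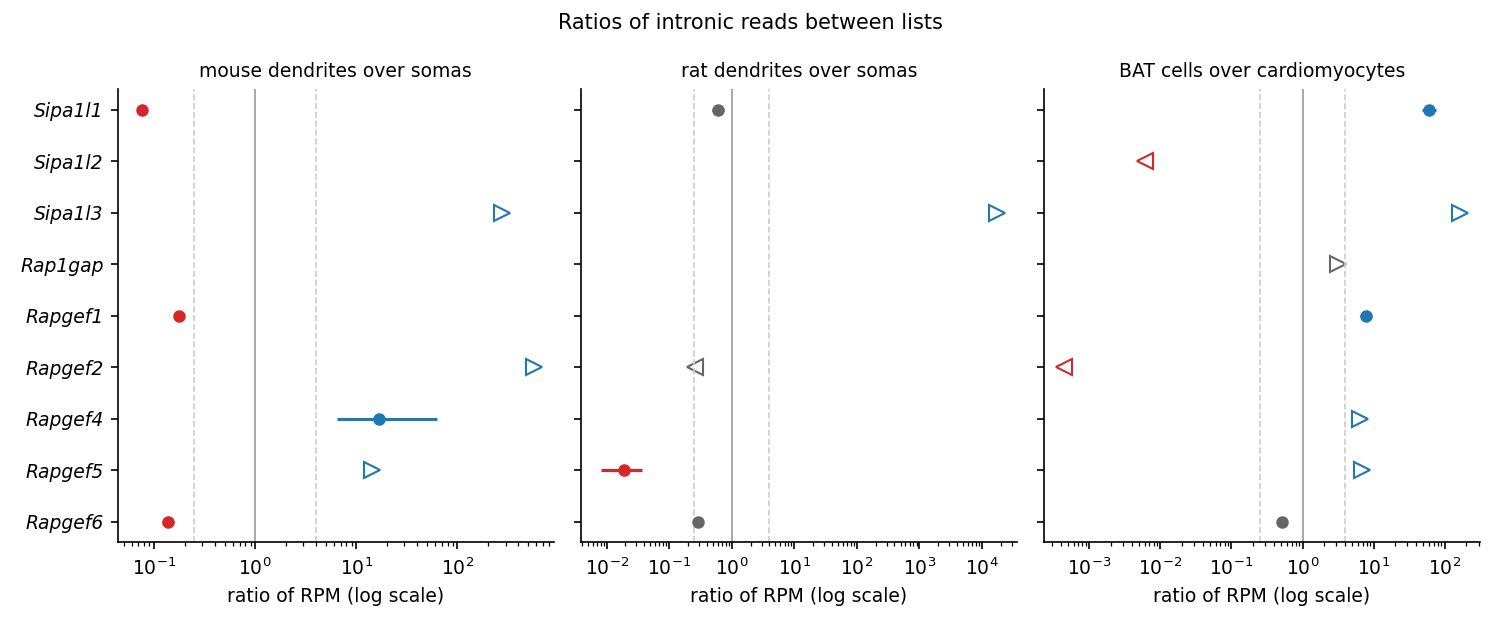
Ratio of intronic RPM (log scale) of each Rap regulator in mouse dendrites over somas, rat dendrites over somas and BAT cells over cardiomyocytes. Circles carry exact 95% counting intervals, open triangles are bounds where 1 list lacks the gene and point in the direction of the ratio, and dashed lines mark 4-fold. Sipa1l3 lies to the right in all 3 panels, and Rapgef5 changes sides between mouse and rat when contigs of any length are counted.

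The mouse contigs could be placed in the introns of the GENCODE annotation of NCBIM37. The 9 genes have 217 introns there, and 68 (31.3%) were listed in at least 1 mouse list, beside 30.5% of the 146899 introns of all matched genes. Listed introns of the Rap regulators had a median length of 3328.5 nt and the others 1993 nt. By length, 7 of 59 introns under 1000 nt, 39 of 101 from 1000 to under 5000 nt and 21 of 42 from 5000 to under 20000 nt were listed, which is 11.9%, 38.6% and 50.0%, beside 15.1%, 37.5% and 52.0% of all introns of those lengths. Among introns of 20000 nt or more, 1 of 15 was listed, 6.67% (0.169 to 31.9), beside 34.4% of all such introns. That 1 was intron 1 of Rapgef1. The interval treats the introns as independent, although several lie in the same gene, so it is not a test of a difference. Longest introns without a contig were intron 4 of Rapgef4 (91993 nt), intron 2 of Sipa1l3 (69025 nt) and intron 3 of Rapgef5 (48305 nt).

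**Figure D5:**
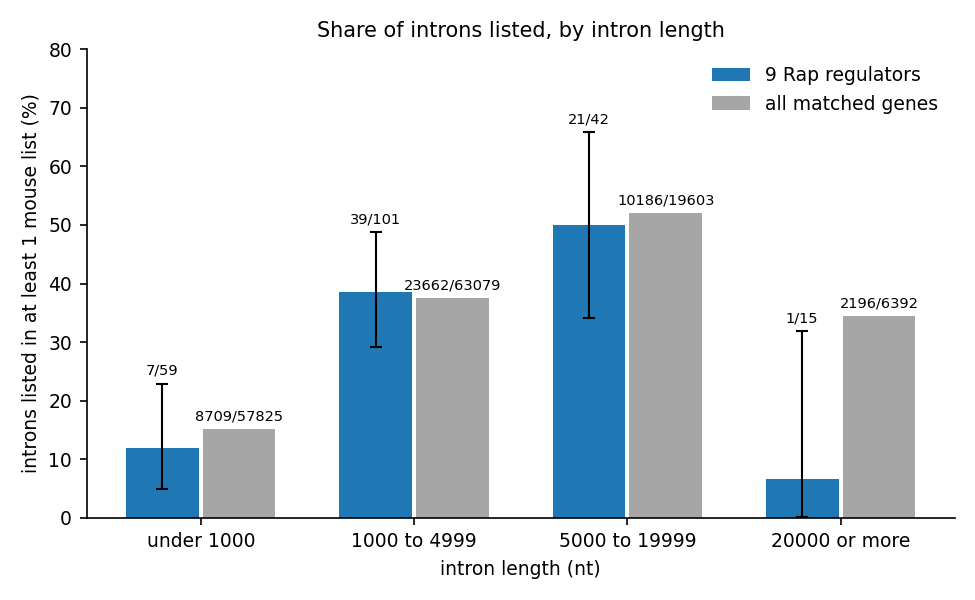
Share of introns listed in at least 1 of the 4 mouse lists (%), by intron length, for the 9 Rap regulators (blue, with exact 95% binomial intervals) and for all matched genes (grey). Numbers above the bars are listed introns over all introns, and the intervals treat introns as independent. The Rap regulators follow all genes in the 3 shorter classes and stand at 1 of 15 in the longest.

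The 137 mouse contigs of the Rap regulators were 59 to 1832 nt long and covered a median of 5.02% of their intron, beside 6.40% for all mouse contigs. Of these contigs 14 (10.2%) touched an exon boundary, beside 21.3% of all mouse contigs, and 5 (3.65%) overlapped an annotated exon of any gene, beside 7.85%. The lists differed in both. Contigs of the Rap regulators touched an exon boundary in 9.30% of cases in mouse dendrites, 6.67% in somas, 10.9% in BAT cells and 12.5% in cardiomyocytes, beside 8.21%, 13.2%, 27.9% and 31.8% of all contigs, so in dendrites their share was not the lower one. In cardiomyocytes 12.5% overlapped an annotated exon, beside 11.5%. A run of 10 or more adenines (AAAAAAAAAA on the gene's strand, inside the contig or within 300 nt after it) went with 31 of the 137 (22.6%), beside 19.4% of all. Runs within 300 nt before the contig or inside it went with 20 (14.6%), beside 12.9%. Such a run lay at the very end, no more than 30 nt after the last base, in 15 contigs (10.9%), beside 9.83%, but in dendrites in 4.65%, beside 8.68%. Runs before the contig or inside it were the more frequent in the Rap regulators in dendrites (18.6%, beside 12.2%) and not in the other 3 lists. Of those 15, 8 were of Rapgef1, in introns 1, 3, 5 and 12.

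Contigs of 1 mouse list overlapped a contig of another list for 38 of the 137 (27.7%), beside 32.3% of all mouse contigs. By list it was 18.6% in dendrites, 23.6% in BAT cells and 33.3% in cardiomyocytes, beside 28.4%, 24.8% and 46.4%, but 9 of 15 in somas, beside 47.7%. Where the overlap had to cover at least 50% of the shorter contig, somas had 6 of 15, beside 44.8%, and were no exception. Of the 68 listed introns 21 (30.9%) were in 2 or more mouse lists, beside 39.5%. The 25 overlapping pairs of contigs ended within 30 nt of each other at their 3′ ends in 9 pairs and on the same base in 2, beside 43.1% and 20.9% of the 20605 pairs of all genes. Their 5′ ends were within 30 nt in 9 pairs as well, beside 31.1%. Rapgef1 alone gave 14 of the 25 pairs.

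The rest of the pathway was followed with a list of 34 genes, made up of the Rap proteins, other GEFs and GAPs, adaptors of Rapgef1 and Rap effectors. Mouse dendrites listed 19 of the 34, mouse somas 14, rat dendrites 12, rat somas 9, BAT cells 22 and cardiomyocytes 13. Counted like all genes, among the 24 found in any mouse list, that is 79.2% in mouse dendrites, 58.3% in mouse somas, 91.7% in BAT cells and 54.2% in cardiomyocytes, beside 69.0%, 47.3%, 82.0% and 49.8% of all genes. In rat it is 12 and 9 of the 15 found in any rat list, beside 78.5% and 59.4%. Of the 5 Rap genes themselves, 1 (Rap1a) was in both dendrite lists, none was in a soma list, and the 3 Rap2 genes were in no list. All 4 adaptors (Crk, Crkl, Bcar1 and Cbl), which couple tyrosine kinases to Rapgef1, were in the BAT list, and 3, 2, 2, 1 and 3 of them in mouse dendrites, mouse somas, rat dendrites, rat somas and cardiomyocytes.

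Read counts of different genes are not corrected for length. In mouse dendrites the leading genes were the kinase Tnik (3758 reads, 1218 RPM), the GEF Dock4 (1806, 585) and the kinase Braf (1079, 350). In mouse somas they were Mllt4, the adhesion protein afadin (3188 reads, 1718 RPM), Braf (935, 504) and Tnik (305, 164). In rat, Mllt4 led in dendrites with 3735 reads (3707 RPM) and in somas with 15158 (7237), and intron 22 held 3679 and 15034 of these. Map4k4 (857) and Tnik (835) followed in rat dendrites, and Tnik (306) and Rgl1 (85) in rat somas. BAT cells were led by Braf (35373 reads, 1981 RPM), Crk (30968, 1734, all in intron 1) and Rap1a (28714, 1608), and cardiomyocytes by Braf (15866, 1300) and Tnik (4973, 407.6).

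The genes whose levels lay nearest to those of Sipa1l3 over the 6 lists were sought among 4483 genes listed in both species, by the Euclidean distance of log2(RPM + 1). They were Laptm4a (distance 3.72), Dirc2 (3.85) and Cp (4.70). Laptm4a, a lysosomal membrane protein, had 445 RPM in mouse dendrites, 1980 in rat dendrites, 46.4 in BAT cells and 0.656 in cardiomyocytes. Dirc2 had 81.3, 3600, 83.3 and 0.164, and Cp, the copper-carrying ceruloplasmin, had 41.5, 2680 and 28.9 and was not in the cardiomyocyte list. None of the 3 was in a soma list, which follows in part from how they were chosen. The distances rest on 6 pooled values a gene that share libraries.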

How the data were processed

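RNA of dendrites and single somas of cultured mouse and rat neurons, and of mouse BAT cells and cardiomyocytes taken singly, had been amplified and sequenced. The deposited values are raw read counts of introns. To make them, the authors aligned the reads with RUM, kept those that mapped uniquely to introns, took out introns that hold a gene prediction or a known poly(A) site, joined reads up to a set distance into contigs and pooled the libraries of a group. The submitters' processing notes name the builds mm9 and rn4. The libraries did not mark strand, so antisense transcripts cannot be told apart. The labels name more BAT cells and cardiomyocytes than the paper counts.

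The 9 genes were found by symbol. Every count is repeated on each contig of an intron (checked: 0 introns held unequal counts), so it was taken once per transcript and intron and summed over a gene. Start and end positions were shifted by 1 to count from 1. Levels (RPM) are reads per 1000000 reads summed over a list. A gene missing from a list was set to 3 reads in ratios, and genes with at most 3 reads in both lists had none. Counting intervals were exact Poisson, Clopper-Pearson or conditional binomial at 95%. Of 13156 mouse transcripts 12776 (97.1%) were matched to GENCODE introns of the same number. Rat introns were not placed, since no rn4 genome was used here. Python 3.11.15, pandas 2.3.3, numpy 2.4.6, scipy 1.17.1 and matplotlib 3.10.9 were used, and the functions were tested on simulated data.

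The members, the pathway and marker lists and the tests were chosen with earlier results of these data known. Named were the 9 genes, the 3 most read pathway genes of each list (1 in cardiomyocytes is not reported here) and the 3 genes nearest to Sipa1l3. Alternatives were a limit of 400 nt on contigs (in whole cells, or in all lists), a minimum of 32 reads per intron or of 8 times as many in 1 intron for a listed gene, 1 transcript per gene, and 3 other scalings. Under the limit on contigs an intron kept its whole count while 1 of its contigs remained. The minimum run of adenines, its window and the overlap were varied after the data were seen.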

Additional observations from a re-analysis of the deposited data

Results flagged for a closer look

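Rapgef5 went in opposite directions in the 2 species. It had 72 reads in mouse dendrites and 0 in mouse somas, and 8 reads in rat dendrites and 882 in rat somas. The difference was not tested, since each value is 1 pooled list. The reads lay in introns 4, 19, 20 and 23 in mouse dendrites and in intron 14 in both rat lists, and the rat soma contig was 900 nt long. With contigs of at most 400 nt the opposite direction was lost, since the rat ratio turned to at least 1.64-fold higher in dendrites, or 4.23-fold with the limit in all lists.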

How the results depend on the processing

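Other settings were tried for the 9 genes. For the limit of 400 nt and the minimum of 32 reads, the shares of all genes listed or called were not computed. Counts under those settings are therefore not read as a result about the 9 genes. With contigs of at most 400 nt in whole cells, 0 of the 9 genes were listed in rat somas, rat genes called higher in dendrites rose to 3 and lower fell to 0, mouse genes called lower in dendrites fell to 1, and 3 genes were called higher and 1 lower in BAT cells. With that limit in all lists, 2 were listed in rat dendrites and 0 in rat somas, 0 rat genes were called lower, 1 mouse gene was called lower, and 3 were higher and 1 lower in BAT cells. The ratio of Rapgef5 in rat dendrites over somas then reversed, to 1.64 and, with the limit in all lists, 4.23. In whole cells the limit also turned those of Sipa1l1 (19.9) and Rapgef6 (60), which were within 4-fold with contigs of any length, by taking out the soma reads alone. With the limit in all lists Sipa1l1, Rapgef6 and Sipa1l3 had no value in rat, since their dendrite reads lay in longer contigs, but for 3 reads of Sipa1l1. A minimum of 32 reads left 4 genes in BAT cells and 3 called higher there, since Rapgef4 and Rapgef5 no longer had a value. Asking for 8 times that minimum in 1 intron left 4 of 7 listed genes in mouse dendrites, beside 23.5% of all genes listed there. In rat dendrites it left 1 of 4, Sipa1l3, whose count chose the set, beside 15.8%. BAT cells kept 4 of 7, beside 40.2%, and cardiomyocytes 3 of 5, beside 42.9%. Scaling to the median reads per intron, or to the sequenced reads of the libraries, called 3 rat genes lower. The scalings moved all ratios on the log2 scale by -0.23 to 0.61 in mouse neurons and -0.45 to -0.03 in rat neurons. The other 51 values of these counts stayed within 1.5 times. Runs of at least 8 adenines went with 38 contigs of the Rap regulators (27.7%), beside 28.2% of all mouse contigs. The higher share of the Rap regulators with runs of 10 or more (22.6%, beside 19.4%) was thus lost. With the window cut to 50 nt, runs of 10 or more went with 27 contigs (19.7%, beside 16.9%). An overlap with a contig of another list over at least 50% of the shorter was found for 32 (23.4%), a lower share than among all mouse contigs. The limit acts on the long contigs of whole cells and, when set in all lists, on those of dendrites too. Other causes were not tested. No paired analysis was possible because the libraries of each group are pooled in 1 list, and for the same reason no library could be left out. Depth sets the counting intervals, which are wide for genes of few reads, such as Rapgef4 in mouse somas (0.587 to 5.52 RPM).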
